A study of Mus musculus with 167 samples.

Results

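The 2 mature arms of microRNA miR-151 (mmu-miR-151-5p and mmu-miR-151-3p, hereafter miR-151-5p and miR-151-3p) were followed through small RNA libraries of lung, heart, brain, leukocytes (WBC) and erythrocytes (RBC), where they were 2 of 1915 mature miRNAs counted. They were chosen because miR-151-5p was lower in the lung of irradiated C3H mice, so the values of that contrast, of both arms and of their ratio, are a description and carry no test. C3H mice (C3Hf/Sed/Kam, all female, sampled at month 4) and C57 mice (C57Bl/6, male and female, sampled at month 6) had been given whole thorax lung irradiation (WTLI) in 1 dose as young adults, or were sham irradiated. Lung, heart, brain and RBC each gave 7 irradiated and 8 sham C3H libraries and 5 irradiated and 15 sham C57 libraries, and WBC gave 6 and 5 C3H and 5 and 11 C57 libraries. The irradiated animals were those that lived to the endpoint, and strain and time after WTLI cannot be told apart. Only 1 of the 5 irradiated C57 mice was female. The labels also give each animal a letter, A or B, whose meaning is not stated, and some values are given by letter as well.

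MiRNAs are short RNAs that are cut from a hairpin precursor by the nucleases Drosha and Dicer. Either arm of the hairpin, named 5p and 3p, can be loaded into an Argonaute protein, where bases near its 5′ end (the seed) pair with messenger RNAs and lower their translation and stability. The arms of 1 hairpin are made in equal number, so that the ratio of their reads depends on which arm is kept and on how well each arm is captured in a library. MiR-151 is known from tumour cells, where it is co-expressed with its host gene and has been tied to cell migration.

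In the mouse genome (GRCm38, the same assembly as mm10) the annotation placed Mir151 on the minus strand at chr15:73254815-73254882. It lies in an intron of Ptk2, on the same strand, which encodes focal adhesion kinase, a tyrosine kinase of cell adhesion sites (chr15:73205102-73423280). Of 15 annotated Ptk2 transcripts, 5 spanned the hairpin and 0 exons overlapped it. The opposite strand carried an antisense transcript, 1700085D07Rik (chr15:73249546-73264120), whose exons did not overlap the hairpin either. MiR-151 is grouped by its hairpin with miR-28 and miR-708. The mature arms of these relatives, from RefSeq on GRCm38, are shown with bases 2 to 8, the seed, in capitals. The sequence set used held no entry for miR-151, so these are seeds of the relatives and are not given as those of miR-151.
miR-28a-5p: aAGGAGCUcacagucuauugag
miR-708-5p: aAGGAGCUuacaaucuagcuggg
miR-28a-3p: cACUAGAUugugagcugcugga
miR-708-3p: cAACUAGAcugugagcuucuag
The 5p arms of miR-28a (chr16:24827868-24827889) and miR-708 (chr7:96249450-96249472) shared a seed, whereas their 3p arms (chr16:24827908-24827929 and chr7:96249496-96249517) were offset by 1 base.

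Both arms were counted in every library. Libraries held 1794995 to 7865102 miRNA reads, and counts were expressed in RPM, the count divided by the library's total and multiplied by the same constant in all libraries. The lowest count of miR-151-5p was 565 in lung and 80 in RBC, and that of miR-151-3p was 214 in lung and 28 in RBC, so that counting error was small against the spread between animals except in the lowest blood libraries. By abundance miR-151-5p had a median rank of 66 in lung, 53 in heart and 74 in brain, and of 82 and 87 in WBC and RBC. MiR-151-3p ranked 80, 80, 113, 77 and 98.5 in the same order. The labelled organs were borne out by their markers. Cardiac miR-208a-3p was higher in 35 of 35 heart libraries than in any library of another tissue, as were neuronal miR-124-3p in 35 of 35 brain libraries and miR-34c-5p of ciliated epithelium in 35 of 35 from lung. Blood fractions separated less well. Leukocyte miR-223-3p exceeded every other tissue in 13 of 27 WBC libraries, and erythrocyte miR-451a did so in 0 of 35 RBC libraries.

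**Figure D1:**
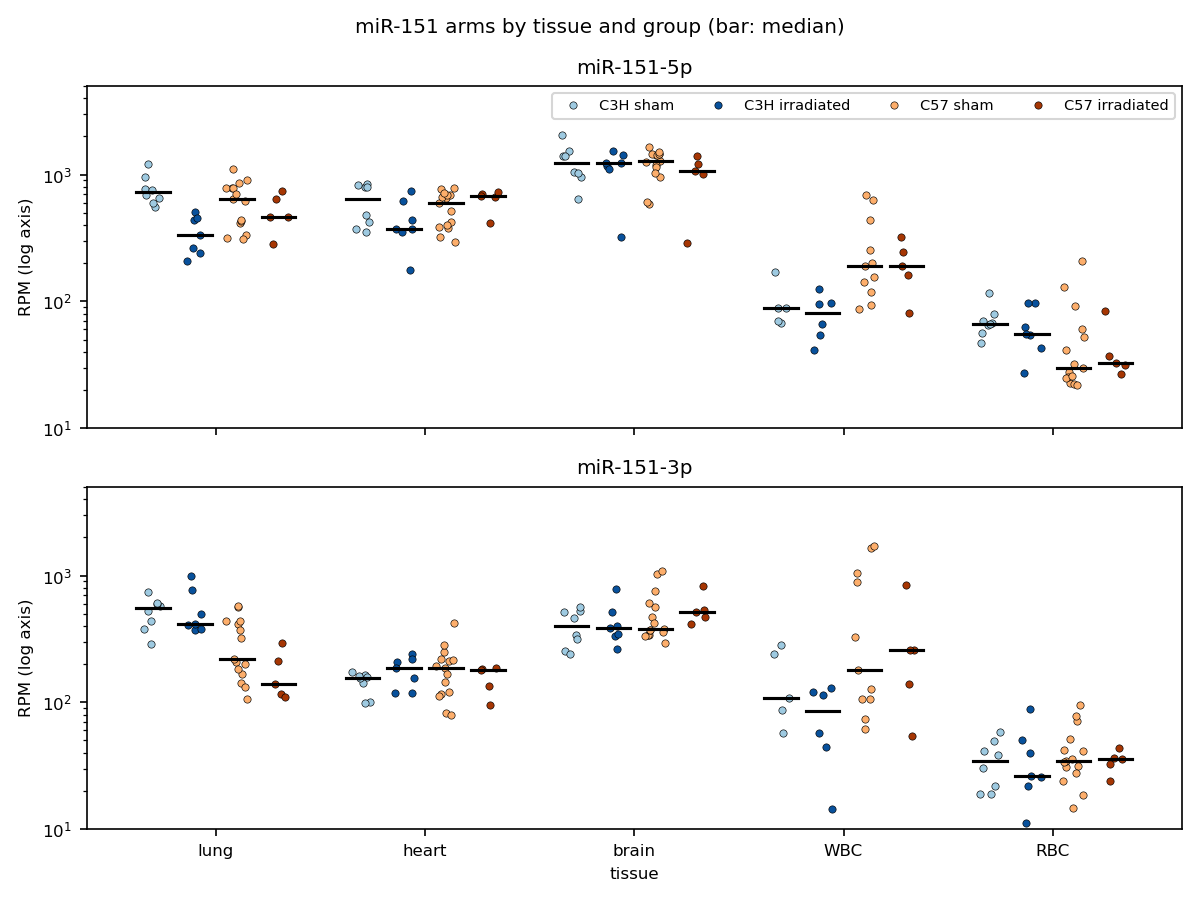
RPM of miR-151-5p (top) and miR-151-3p (bottom) on a log axis in each library (points) by tissue, with the median of each group as a bar. In C3H lung every irradiated library lies below every sham library for miR-151-5p, and elsewhere the groups overlap.

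In C3H lung, the contrast that chose the members, miR-151-5p fell in every irradiated library. The 8 sham libraries ran from 553 to 1216 RPM with a median of 729, and the 7 irradiated libraries from 207.5 to 506 RPM with a median of 332. The means were 776 ± 218 RPM (SD, n = 8) and 349 ± 118 RPM (SD, n = 7). The highest irradiated library, at 506 RPM, and the lowest sham library, at 553 RPM, were the closest pair across the gap. Of 350 miRNAs tested in lung, 6 (1.71%) had every irradiated C3H library below every sham library, and 117 (33.4%) passed an adjusted p of 0.05 in this contrast in either direction. On the normalised log2 scale of limma, miR-151-5p was lower by a difference of -1.498 (SE 0.279, 95% interval -2.07 to -0.93). The difference was -1.18 with library size as the only scaling.

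MiR-151-3p, from the same hairpin, gave no such separation in C3H lung. Sham libraries ran from 287 to 736 RPM with a mean of 517 ± 144 (SD, n = 8), and irradiated libraries from 371 to 989 RPM with a mean of 548 ± 240 (SD, n = 7). The fitted difference was -0.27 (SE 0.30), and 0.037 with library size alone, so that its sign turned with the scaling. Leaving out 1 library at a time gave -0.47 to -0.17, the lowest without irradiated mouse 2077. The 5p to 3p ratio had a median of 1.22 in sham (range 0.818 to 4.24) and 0.811 in irradiated C3H lung (range 0.245 to 1.36), a difference of -1.22 (SE 0.53) on the log2 scale. In both arms together the sham libraries held 1293 ± 127 RPM (SD, n = 8) and the irradiated libraries 897 ± 168 RPM (SD, n = 7), with overlap between 1075 and 1231 RPM.

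The animals with the letters A and B differed in how the arms moved. Among letter A animals miR-151-5p was 242, 207.5 and 262 RPM in the 3 irradiated mice against 966, 1216, 653 and 553 RPM in the 4 sham mice. In the same irradiated mice miR-151-3p was 989, 774 and 498 RPM. Their sham group held 377, 287, 581 and 522 RPM, with a mean of 442 RPM, so that the lowest irradiated value lay within the sham range. Among letter B animals miR-151-5p was 506, 438, 457 and 332 RPM in the 4 irradiated mice against 764, 763, 602 and 695 RPM in the 4 sham mice. Here miR-151-3p was also lower, with 371, 380, 414 and 409 RPM against 591, 434, 736 and 604 RPM, and did not overlap. In letter B animals alone 85 of 353 miRNAs passed in this contrast (limma). The share of all miRNAs without overlap was counted for C3H lung as a whole and not for subsets by letter or sex. By their group means, the arms went opposite ways in letter A animals and together in letter B animals. The mean log2 arm ratio differed by -2.54 between irradiated and sham in the first and by -0.15 in the second.

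**Figure D2:**
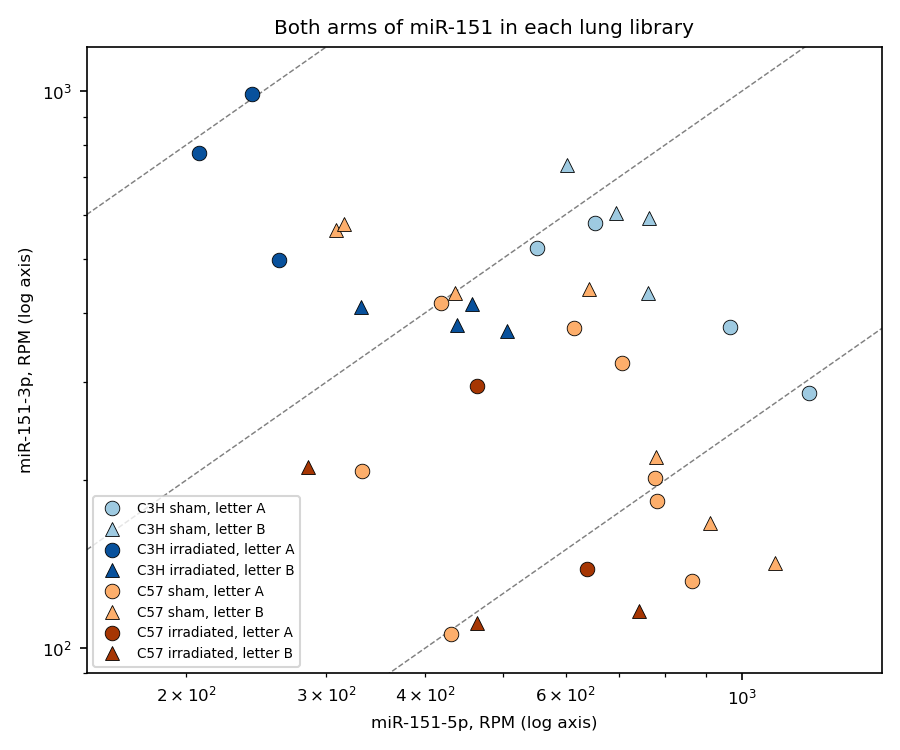
RPM of miR-151-5p (x) against miR-151-3p (y) in each lung library, both on log axes, with circles for letter A and triangles for letter B, and dashed lines at 5p to 3p ratios of 0.25, 1 and 4 from upper left to lower right. Irradiated C3H libraries lie to the left of all sham C3H libraries. Among the irradiated C3H libraries, those of letter A lie above those of letter B on the 3p axis.

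Marker lists of other cell types also moved in C3H lung, and their part in the result was not tested. The endothelial list (both arms of miR-126a) was lower in the irradiated mean for 2 of 2 members, with a summed level of 380360 to 444380 RPM in sham and 297020 to 390150 RPM in irradiated libraries. The cardiac muscle list was lower for 4 of 4 members, with 4759 to 7515 RPM in sham and 2569 to 5226 RPM after WTLI. The erythrocyte list was higher for 4 of 4 members, with 181 to 1134 RPM in sham and 289 to 2823 RPM after WTLI, and no member of any of these lists was at 0 throughout. Of the other lists, 4 of 5 leukocyte, 5 of 5 ciliated, 3 of 5 epithelial, 4 of 5 mesenchymal and 1 of 4 neuronal members had a higher irradiated mean, and their summed levels overlapped between the groups. In a tissue homogenate, fewer cells of a type and less of the miRNA in each cell cannot be told apart.

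In C57 lung, which took no part in the choice, both arms had lower means after WTLI but neither passed the test. MiR-151-5p was 638, 464, 743, 465 and 285 RPM in the 5 irradiated mice and 309 to 1099 RPM (median 642) in the 15 sham mice. The groups overlapped, with 4 of 5 irradiated libraries below the sham median. The difference was -0.45 (SE 0.27, 95% interval -1.01 to 0.11, adjusted p = 0.24, limma), and -0.24 without mouse 1089, the only irradiated C57 female. MiR-151-3p was 138, 295, 116, 111 and 211 RPM in the irradiated mice and 106 to 578 RPM (median 220) in the sham mice. Again 4 of 5 irradiated libraries were below the sham median and the ranges overlapped. The difference was -0.80 (SE 0.32, 95% interval -1.44 to -0.15, adjusted p = 0.076, limma), and DESeq2 placed it at -0.91 with an adjusted p of 0.031. In this contrast 58 of 350 miRNAs (16.6%) passed the threshold in limma and 84 (24.0%) in DESeq2. The difference of miR-151-3p was larger in the letter B animals, at -1.25 (adjusted p = 0.016, limma, where 65 of 353 miRNAs or 18.4% passed), against -0.34 (adjusted p = 0.77) in letter A animals. Among male C57 mice alone it was -0.56 (adjusted p = 0.35). Of the marker lists in C57 lung, the endothelial list had a lower irradiated mean for 2 of 2 members (summed 212140 to 451410 RPM in sham, 285340 to 352260 RPM in irradiated libraries) and the erythrocyte list for 4 of 4 (106 to 2121 RPM and 81.0 to 471 RPM). The neuronal list was higher for 4 of 4 (61.0 to 208 RPM and 128 to 616 RPM) and the leukocyte list for 4 of 5 (2393 to 9749 RPM and 5564 to 6829 RPM). A higher irradiated mean was found for 1 of 4 cardiac muscle, 2 of 5 epithelial, 1 of 5 ciliated and 2 of 5 mesenchymal members. The summed levels of all these lists overlapped. Their part in these values was not tested. The arm ratio did not pass in C57 lung (0.45, SE 0.53, adjusted p = 0.76, limma). Leaving out 1 irradiated library at a time gave 0.18 to 0.74.

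**Figure D3:**
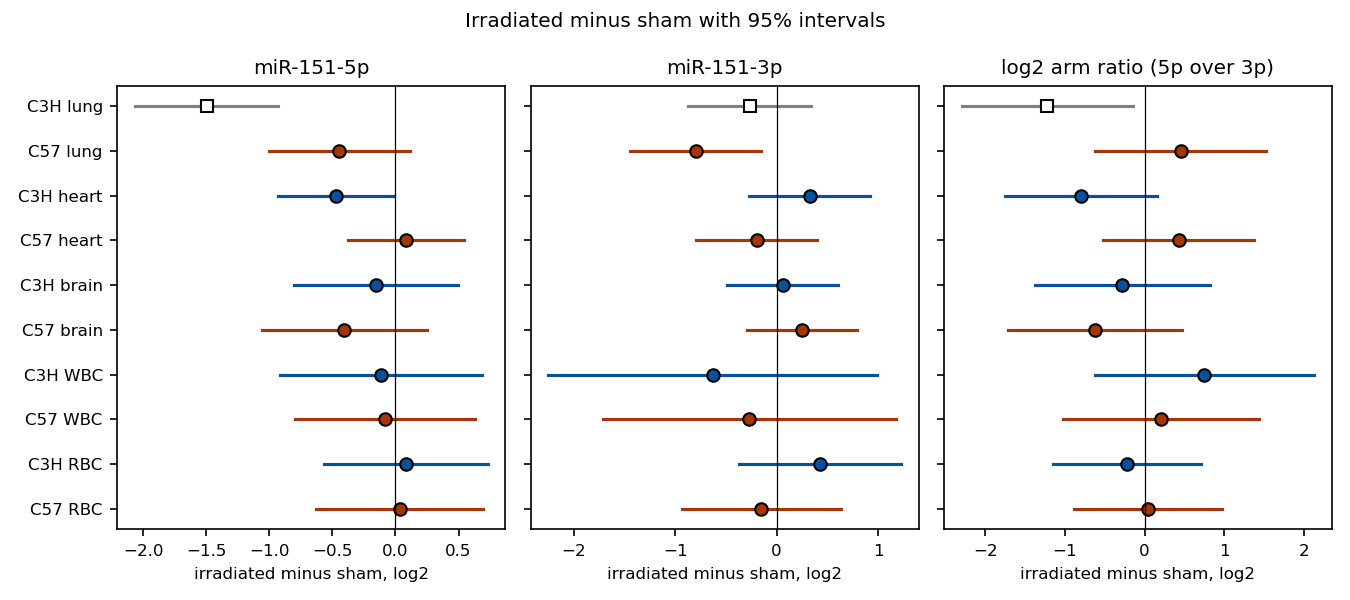
Irradiated minus sham on the log2 scale (x, with 95% intervals of the limma fit) for each tissue and strain, for miR-151-5p, miR-151-3p and the log2 ratio of 5p to 3p. White squares with grey bars mark C3H lung, which chose the members and has no test; none of the other values passed an adjusted p of 0.05.

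The heart lies within the irradiated thorax, and neither arm passed there in either strain. In C3H heart miR-151-5p ranged from 353 to 845 RPM (median 640) in sham and from 177 to 738 RPM (median 373) in irradiated mice, with 6 of 7 irradiated libraries below the sham median. The difference was -0.47 (SE 0.23, adjusted p = 0.14, limma) where 52 of 312 miRNAs (16.7%) passed. MiR-151-3p went the other way in RPM, from a mean of 144 ± 29 (SD, n = 8) to 178 ± 49 (SD, n = 7), with a difference of 0.33 (SE 0.29, adjusted p = 0.42). The letters again differed. Sham C3H heart libraries held 800 to 845 RPM of miR-151-5p in letter A animals and 353 to 480 RPM in letter B animals, 2 ranges that did not meet. All 3 irradiated letter A libraries were below their sham group in RPM, and 1 of 4 letter B libraries was below its own. In the same C3H heart libraries the cardiac muscle list had a lower irradiated mean for 4 of 4 members, with a summed level of 216180 to 291000 RPM in sham and 50690 to 246800 RPM in irradiated libraries. The leukocyte list was lower for 5 of 5 (1065 to 10253 RPM and 833 to 2656 RPM) and the ciliated list higher for 5 of 5 (61.9 to 200.2 RPM and 184 to 724 RPM). The study reported miR-34b-3p and miR-34c-3p, members of the ciliated list, as differentially expressed in C3H heart. Of the remaining lists, 0 of 5 epithelial, 0 of 5 mesenchymal, 0 of 4 neuronal, 1 of 4 erythrocyte and 1 of 2 endothelial members had a higher irradiated mean, and their summed levels overlapped. In C57 heart a higher irradiated mean was found for 0 of 4 cardiac muscle, 2 of 2 endothelial, 4 of 4 neuronal, 4 of 5 leukocyte, 4 of 5 ciliated, 1 of 4 erythrocyte, 1 of 5 epithelial and 1 of 5 mesenchymal members, again with overlapping sums. The part of these lists was not tested. In C57 heart, where 11 of 312 miRNAs (3.53%) passed, the differences were 0.09 (SE 0.23, adjusted p = 0.87) and -0.20 (SE 0.29, adjusted p = 0.80) for miR-151-5p and miR-151-3p. Leaving out 1 irradiated library at a time gave 0.033 to 0.18 and -0.25 to -0.080 for the arms in turn. The interaction of strain and irradiation passed for 0 of 312 heart miRNAs (0%) in limma, where 51 had an unadjusted p under 0.05, and edgeR made 0 calls. It was -0.56 (SE 0.32, adjusted p = 0.35) for miR-151-5p and 0.52 (SE 0.41, adjusted p = 0.45) for miR-151-3p.

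In brain, outside the radiation field, miR-151-5p was at its highest by RPM, and neither arm passed. Its means were 1259 ± 435 RPM (SD, n = 8) in sham and 1144 ± 392 (SD, n = 7) in irradiated C3H mice, and 1228 ± 314 (SD, n = 15) and 994 ± 421 (SD, n = 5) in C57 mice. The sham C3H brain libraries separated by letter in both arms. MiR-151-5p held 638 to 1056 RPM in the 4 letter A and 1401 to 2055 RPM in the 4 letter B libraries, and miR-151-3p 460.1 to 562 RPM and 241 to 338 RPM, so that the ratio was 1.13 to 2.24 in letter A and 4.15 to 8.04 in letter B. The irradiation differences of miR-151-5p were -0.15 (SE 0.32, adjusted p = 1.00) in C3H and -0.40 (SE 0.32, adjusted p = 0.58, limma) in C57 brain. Those of miR-151-3p were 0.06 (SE 0.27, adjusted p = 1.00) in C3H and 0.25 (SE 0.27, adjusted p = 0.70) in C57 brain. Without mouse 1089 the differences in C57 brain were -0.015 for miR-151-5p and 0.062 for miR-151-3p. In limma 0 of 433 miRNAs (0%) passed in either strain, with 9 in C3H and 53 in C57 at an unadjusted p under 0.05, while DESeq2 called 0 and 9 and edgeR 0 and 3.

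In the blood fractions neither arm passed. In C3H WBC miR-151-5p was 67.0 to 170 RPM in sham and 41.4 to 124 RPM in irradiated mice, with a difference of -0.11 (SE 0.39, adjusted p = 0.99, limma). MiR-151-3p was 57.6 to 281 RPM against 14.3 to 129 RPM, with a difference of -0.63 (SE 0.78, adjusted p = 0.95). The 95% interval of that difference, -2.25 to 0.99, took in the size seen for miR-151-5p in C3H lung. Leaving out 1 sham library at a time gave -0.81 to -0.39. In C3H WBC a higher irradiated mean was found for 0 of 4 erythrocyte, 1 of 5 leukocyte, 0 of 5 epithelial and 1 of 4 cardiac muscle members. It was found for 1 of 2 endothelial, 1 of 5 ciliated, 1 of 5 mesenchymal and 2 of 4 neuronal members. All summed levels overlapped, and the part of these lists was not tested. In C57 WBC the differences were -0.08 (SE 0.35, adjusted p = 0.99) and -0.27 (SE 0.70, adjusted p = 0.96). In C3H RBC they were 0.08 (SE 0.32, adjusted p = 0.90) and 0.43 (SE 0.39, adjusted p = 0.54), and in C57 RBC 0.03 (SE 0.32, adjusted p = 0.99) and -0.15 (SE 0.38, adjusted p = 0.99), for 5p and 3p in turn. The sham C57 group held 7 females of 15 and the irradiated group 1 of 5, and RBC miR-151-5p differed by sex. In males alone, a fit chosen after the data were seen for RBC, miR-151-5p was 36.9, 26.9, 31.3 and 32.4 RPM in irradiated and 21.7 to 29.7 RPM in 8 sham mice. Here 3 of 4 irradiated males were above every sham male, and the difference was 0.45 (SE 0.16, adjusted p = 0.25), where 1 of 226 miRNAs passed. In limma 0 of 291 miRNAs (0%) passed in WBC of either strain (20 in C3H and 12 in C57 at an unadjusted p under 0.05), and neither DESeq2 nor edgeR called any (0). In RBC 0 of 229 (0%) passed in limma in either strain (43 and 14 unadjusted), while edgeR called 12 and 1 and DESeq2 22 and 1. The strain interaction passed for 0% of the miRNAs of brain, WBC and RBC in limma (21, 5 and 12 at an unadjusted p under 0.05) and for 0 in edgeR. Its values for miR-151-5p and miR-151-3p were 0.25 and -0.19 in brain, -0.03 and -0.36 in WBC, and 0.05 and 0.58 in RBC, with adjusted p from 0.86 to 1.00.

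The ratio of the arms within a library does not depend on its total, and irradiation moved it past the threshold in none of the 9 contrasts tested. After C57 lung, the values were -0.80 (SE 0.47, adjusted p = 0.43) in C3H heart and 0.42 (SE 0.47, adjusted p = 0.81, and 0.20 to 0.65 with 1 irradiated library left out) in C57 heart. In brain they were -0.28 (adjusted p = 0.99) and -0.62 (adjusted p = 0.59; -0.062 without mouse 1089), in WBC 0.75 (adjusted p = 0.83) and 0.20 (adjusted p = 0.99), and in RBC -0.22 (adjusted p = 0.76) and 0.04 (adjusted p = 0.98), C3H first. In C3H WBC all 6 irradiated libraries had a ratio above the sham median, though only 1 exceeded every sham library. Over all hairpins with both arms counted, 5 of 73 (6.85%) passed in C3H lung and 0% in C57 lung, 1 of 62 (1.61%) and 0% in heart, 0% of 102 in brain and of 49 in WBC in both strains, and 2 of 30 (6.67%) and 0% in RBC (limma). Where 0 passed, the hairpins at an unadjusted p under 0.05 numbered 5 in C57 lung, 5 in C57 heart, 0 in C3H and 10 in C57 brain, and 0 in WBC of both strains and in C57 RBC.

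The spread of this ratio among libraries of the same group was large. In sham C57 lung the ratio ran from 0.547 to 7.75 over 15 mice, with a median of 2.18. MiR-151-5p alone spanned 309 to 1099 RPM in these mice and miR-151-3p 106 to 578 RPM, whereas the sum of the arms spanned 536 to 1241 RPM. The within-group SD of the log2 ratio in lung was 1.08, exceeded by 1 of 73 hairpins, where the median hairpin had 0.55. In brain it was 1.09 (5th of 102, median 0.57), in heart 0.94 (14th of 62, median 0.64), in WBC 1.17 (9th of 49, median 0.80) and in RBC 0.91 (8th of 30, median 0.65). Among sham C57 libraries the arms ran against each other in 3 organs. Over log2 RPM, Pearson's r was -0.57 in lung (n = 15, permutation p = 0.029, adjusted over 5 tissues 0.040), -0.60 in heart (n = 15, permutation p = 0.019, adjusted 0.040) and -0.88 in brain (n = 15, permutation p = 0.0003, adjusted 0.0015). Spearman's rho was -0.66 (permutation p = 0.0094, adjusted 0.0235), -0.61 (permutation p = 0.018, adjusted 0.031) and -0.66 (permutation p = 0.0081, adjusted 0.0235). Without the 2 mice farthest from the median of miR-151-5p, r was -0.34 in lung, -0.40 in heart and -0.65 in brain. Within the letters it was -0.11, 0.23 and -0.52 in the 8 letter A mice and -0.94, -0.96 and -0.95 in the 7 letter B mice, given as descriptions, so that in lung and heart the relation rested on the letter B mice. By sex it was -0.20, -0.42 and -0.46 in the 8 males and -0.90, -0.78 and -0.92 in the 7 females, in lung, heart and brain. The pooled values therefore mix variation between mice with differences by sex, which in heart separated the levels of miR-151-5p. The letter B females 1085, 1086 and 1087 belong to both subsets, and held 309 to 435 RPM of miR-151-5p and 434 to 578 RPM of miR-151-3p in lung and 759 to 1082 RPM of miR-151-3p in brain. Without them r was -0.25 in lung, -0.41 in heart and -0.53 in brain (n = 12). The permutations treat the mice as exchangeable, and where mice of a number set vary together these p-values are too small. In WBC the arms rose and fell together (r = 0.68, n = 11, permutation p = 0.032, adjusted 0.040) with a rho of 0.45 (permutation p = 0.17, adjusted 0.17), and r without the 2 farthest mice was 0.43. It was 0.89 in the 5 letter A and 0.40 in the 6 letter B mice. In RBC r was 0.21 (n = 15, permutation p = 0.44, adjusted 0.44) and rho 0.39 (permutation p = 0.16, adjusted 0.17), with r = 0.53 without the 2 farthest mice and opposite signs in males (0.59) and females (-0.54). Without the mice 1085, 1086 and 1087 r was 0.80 in RBC (n = 12), and it was 0.78 in letter A and 0.31 in letter B mice.

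The arm ratio of miR-151 varied along an axis shared by the arm ratios of other hairpins, some of which rose and some of which fell along it. A single axis through the within-strain deviations of sham libraries, taken from 71 other hairpins in lung with miR-151, miR-28a and miR-708 left out, held 45.8% of their variance. The share was 67.5% for heart, 42.9% for brain, 55.4% for WBC and 38.1% for RBC. Along this axis the 5p to 3p ratio rose in 37 of 71 hairpins in lung, 32 of 60 in heart and 52 of 99 in brain. It rose in 26 of 47 in WBC and 19 of 29 in RBC, so that the score is not a general shift of 5p over 3p. Over all libraries of a tissue and within groups, the score of a library on this axis correlated with the log2 arm ratio of miR-151 by 0.91 (lung), 0.89 (heart), 0.96 (brain), 0.67 (WBC) and 0.72 (RBC; 35, 35, 35, 27 and 35 libraries that share their preparation). In WBC the normalised levels of both arms fell with the score (r = -0.74 for miR-151-5p and -0.90 for miR-151-3p). In the other tissues miR-151-5p rose and miR-151-3p fell with it. These are descriptions of the libraries. In C3H lung the score was -1.75 on average in sham (range -4.84 to 4.13) and -2.74 in irradiated mice (range -5.23 to -1.20). By letter it was 0.03 in sham and -4.16 in irradiated letter A mice, and -3.53 and -1.67 in letter B mice. With the score as a covariate, a fit chosen after the data were seen, miR-151-5p in C3H lung differed by -1.37 (SE 0.18) and miR-151-3p by -0.41 (SE 0.18). In C57 lung the same fit gave -0.55 (SE 0.18, adjusted p = 0.022, limma) for miR-151-5p and -0.67 (SE 0.19, adjusted p = 0.0090) for miR-151-3p, both past the threshold, where 109 of 350 miRNAs (31.1%) passed. In heart its values lay between -0.16 and -0.03 (adjusted p from 0.45 to 0.91). In brain they lay between -0.08 and -0.03, with SEs of 0.075 to 0.13. In WBC the difference of miR-151-3p was larger with the score than without it, at -1.07 (SE 0.35, adjusted p = 0.13) in C3H and -0.52 (SE 0.31, adjusted p = 0.51) in C57 mice, and that of miR-151-5p was -0.30 and -0.19 (adjusted p = 0.67 and 0.78). In RBC the 4 values lay between -0.16 and 0.36 (adjusted p from 0.53 to 0.97).

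**Figure D4:**
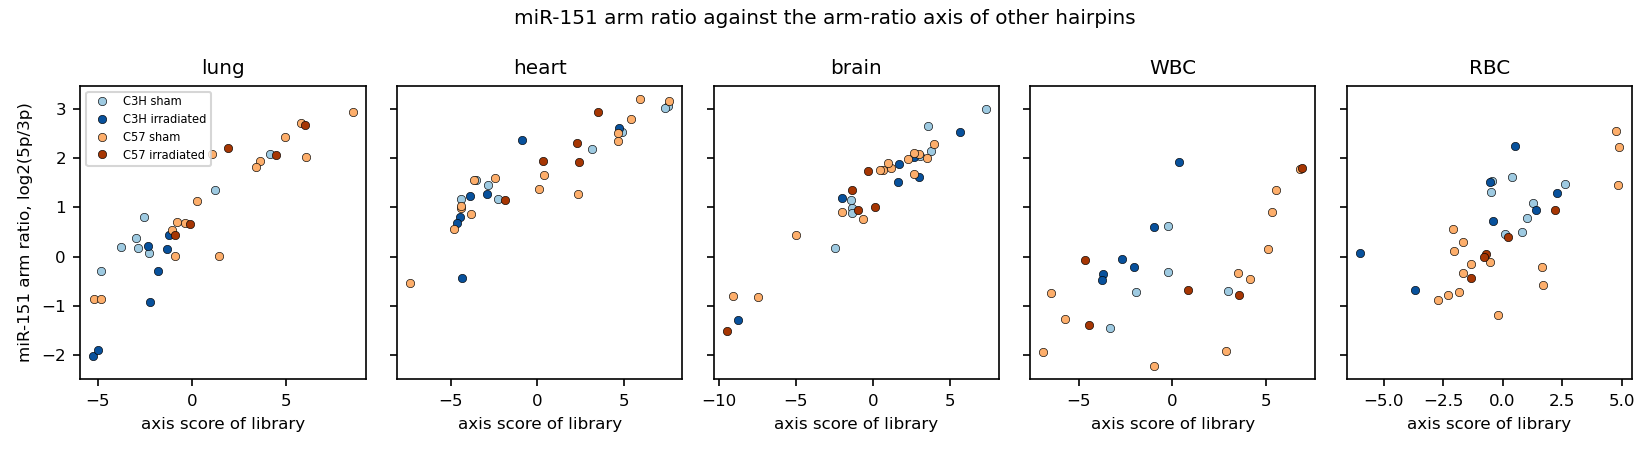
Log2 ratio of miR-151-5p to miR-151-3p counts (y) against the score of each library on the main axis of arm-ratio variation of the other hairpins (x, arbitrary units set per tissue), 1 panel per tissue and 1 point per library. The ratio climbs with the score in lung, heart and brain in all 4 groups, with more scatter in WBC and RBC.

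Across tissues the level of miR-151-5p in sham C57 mice was highest in brain by RPM. The means were 1228 ± 314 RPM in brain (SD, n = 15), 628 ± 245 in lung (n = 15), 553 ± 173 in heart (n = 15), 273 ± 215 in WBC (n = 11) and 54.6 ± 52.7 in RBC (n = 15). C3H sham means followed the same order in the organs, at 1259, 776 and 613 RPM, and were 96.9 RPM in WBC and 71.0 RPM in RBC. MiR-151-3p was at 514.5 ± 252 RPM in brain, 299 ± 158 in lung, 187 ± 90 in heart and 41.9 ± 22.6 in RBC of sham C57 mice. Its WBC libraries ran from 61.1 to 1714 RPM with a median of 178 and a mean of 572, where 7 lay between 61.1 and 328 RPM and 4, all from males, between 897 and 1714 RPM. Each tissue was held in a table of its own, so tissue and table cannot be told apart.

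The order depended on the scaling. In the joint quantile fit of all libraries, miR-151-5p was highest in heart, followed by lung (heart minus lung 0.76, SE 0.21, adjusted p = 0.00071, limma), brain (lung minus brain 0.55, SE 0.21, adjusted p = 0.012), WBC (brain minus WBC 0.13, SE 0.23, adjusted p = 0.59) and RBC (WBC minus RBC 0.88, SE 0.24, adjusted p = 0.00094). Of 542 miRNAs, 58.3%, 89.1%, 92.3% and 62.9% passed in these 4 comparisons, and the median difference of all miRNAs was -0.09, 0.46, -0.28 and -0.35. With library size alone, lung minus brain was -1.02 (adjusted p = 1.01e-05) and heart minus lung -0.15 (adjusted p = 0.60), and with TMM factors heart minus lung was 0.40 (adjusted p = 0.092) and lung minus brain 0.045 (adjusted p = 0.84). Brain minus WBC passed at 2.48 (adjusted p = 5.44e-18) with library size alone and at 1.25 (adjusted p = 7.13e-07) with TMM factors. For miR-151-3p the joint fit gave WBC, heart, lung, RBC and brain in falling order. WBC minus heart was 0.64 (SE 0.30, adjusted p = 0.042), heart minus lung 0.31 (adjusted p = 0.35), lung minus RBC 0.45 (adjusted p = 0.14) and RBC minus brain 0.52 (adjusted p = 0.090), where 86.2%, 58.3%, 87.5% and 92.4% of all miRNAs passed. With TMM factors WBC minus heart was 0.36 (adjusted p = 0.30), and lung minus RBC passed at 2.83 (adjusted p = 1.85e-15) with library size alone and at 1.95 (adjusted p = 1.53e-08) with TMM factors. RBC minus brain turned to -3.67 with library size alone and to -1.71 with TMM factors, both past the threshold. The arm ratio, free of the scaling, fell from heart (mean log2 ratio 1.63) to brain (1.33), lung (1.15), RBC (0.15) and WBC (-0.43). Among neighbours only lung and RBC differed past the threshold (1.01, SE 0.37, adjusted p = 0.0086). Over the 17 hairpins measured in all tissues, 23.5%, 64.7%, 88.2% and 64.7% passed in these 4 comparisons.

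Sham C57 males and females differed in miR-151-5p in opposite directions in heart and RBC. The males carry the numbers 1049 to 1052 and 1061 to 1064 and the females 1073 to 1076 and 1085 to 1087, so that sex and number set cannot be told apart, and the p-values treat the mice as independent. In heart the 8 males held 598 to 785 RPM and the 7 females 292 to 512 RPM, with no overlap (difference 0.70, SE 0.19, adjusted p = 0.0078, limma). MiR-151-3p was lower in male heart, at 157 ± 79 RPM (SD, n = 8) against 222 ± 94 RPM (SD, n = 7), with overlap and a difference of -0.80 (SE 0.26, adjusted p = 0.019), or -0.57 (adjusted p = 0.071) with library size alone. In RBC the males held 21.7 to 29.7 RPM of miR-151-5p and the females 32.0 to 209.7 RPM, again with no overlap (difference -1.44, SE 0.20, adjusted p = 2.82e-06). The highest RBC values, 92.6 to 209.7 RPM, belonged to the 3 letter B females, and those of the 4 letter A females were 32.0 to 61.1 RPM. In WBC, 7 males at 157 to 689 RPM stood above 4 females at 87.0 to 141 RPM without passing the test (difference 1.00, SE 0.35, adjusted p = 0.061). The difference passed with library size alone (1.53, adjusted p = 0.015) and with the letter as a covariate. The adjusted p of miR-151-3p was 0.62 in WBC and 0.17 in RBC, and the other differences by sex did not pass in lung (0.23 and -0.63, adjusted p = 0.62 and 0.16) or in brain (0.44 and -0.50, adjusted p = 0.24 and 0.14). The comparison by sex passed for 6.05% of lung, 34.9% of heart, 21.3% of brain, 11.1% of WBC and 14.4% of RBC miRNAs. With the arm-ratio score as a covariate, the differences in heart were 0.015 (adjusted p = 0.98) and 0.25 (adjusted p = 0.66), and that of miR-151-5p in RBC was -1.08 (adjusted p = 0.00088). In the same fit miR-151-3p in RBC passed, at -1.77 (adjusted p = 0.0011), where 32.7% of miRNAs did. The score was taken from deviations within strain, not within sex. In heart the sham C57 males scored 0.069 to 7.59 and the females -7.34 to -2.46. In RBC they scored -2.70 to -1.33 and -0.55 to 4.89. The sexes did not overlap in score in either tissue, so these fits cannot separate sex from the score.

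Between sham C57 and sham C3H females, miR-151-3p in heart passed the threshold. It was 222 ± 94 RPM (SD, n = 7) in C57 and 144 ± 29 RPM (SD, n = 8) in C3H, with overlap and a difference of 0.77 (SE 0.26, adjusted p = 0.025, limma), or 0.57 (adjusted p = 0.074) with library size alone. MiR-151-5p in heart differed by -0.46 (SE 0.19, adjusted p = 0.062), and by -0.59 with library size alone, which passed (adjusted p = 0.035). It was 800 to 845 RPM in letter A and 353 to 480 RPM in letter B C3H mice, against 292 to 512 RPM in C57 females. The letter B C3H mice thus lay within the C57 range. Strain, month of sampling and number set cannot be told apart, and the p-values treat the mice as independent. In heart 31.6% of miRNAs passed, against 15% for brain, 22.3% for WBC and 18.3% for RBC. With the arm-ratio score as a covariate the difference of miR-151-3p in heart was 0.067 (adjusted p = 0.94). The same covariate brought miR-151-3p past the threshold in WBC, where the sign turned (1.10, adjusted p = 0.038, with 25.5% of miRNAs passing), and in RBC (1.19, adjusted p = 0.0047, with 39.2% passing). In brain the differences were -0.33 (adjusted p = 0.40) and 0.48 (adjusted p = 0.17), in WBC -0.60 (adjusted p = 0.25) and -0.31 (adjusted p = 0.85), and in RBC 0.16 (adjusted p = 0.64) and 0.75 (adjusted p = 0.17), for miR-151-5p and miR-151-3p in turn.

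The relatives of miR-151 were scarcer in lung, and none passed the threshold for irradiation where it could be tested. MiR-28a-3p was tested in all tissues, miR-28a-5p in all but RBC, miR-708-5p in lung, heart and brain, and miR-708-3p in brain, whereas miR-28b and miR-28c were too low everywhere. MiR-28a-5p was at 16.9 ± 2.3 RPM (SD, n = 8) in sham and 18.7 ± 7.2 RPM (SD, n = 7) in irradiated C3H lung, while the fitted difference had the opposite sign (-0.39, SE 0.25, adjusted p = 0.24, limma). MiR-28a-3p was at 28.5 to 85.1 RPM in sham and 71.6 to 140 RPM in irradiated C3H lung (difference 0.46, SE 0.27, adjusted p = 0.19). In C57 lung miR-708-5p differed by -0.83 (SE 0.43, adjusted p = 0.17), at a mean of 6.92 RPM in sham and 5.23 RPM in irradiated mice. In C3H heart it differed by 1.85 (SE 0.70, adjusted p = 0.061), at 0 to 2.60 RPM in sham and 1.25 to 15.6 RPM in irradiated mice. In brain miR-708-5p had group means of 232 to 440 RPM, each below the miR-151-3p mean of the same group (402 to 554 RPM). Its highest brain library held 904 RPM. MiR-28a-3p reached 602 RPM in 1 irradiated C3H heart library, above every miR-151-3p value in heart, where its medians were 51.9 to 60.4 RPM. MiR-28b was at 0 in all lung libraries, and miR-28c reached at most 1.12 RPM there.

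The miRNAs whose level over the 10 sham groups was most like that of miR-151-5p, by Pearson's r of log2 RPM among 390 candidates, were miR-125b-5p (r = 0.986), let-7e-5p (r = 0.983) and miR-361-5p (r = 0.981). Those most like miR-151-3p were miR-467e-5p (r = 0.946), miR-150-5p (r = 0.929) and miR-26a-1-3p (r = 0.923). The r between the arms themselves was 0.804. MiR-125b-5p, which like miR-151-5p peaked in brain by RPM, was at 27960 RPM in sham C57 brain, 7225 in lung, 9081 in heart, 387 in WBC and 30.1 in RBC. The 10 groups share animals and tables, and these values describe likeness over tissues alone.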

How the data were processed

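Small RNA libraries of tissue homogenates and blood fractions were sequenced, and per the labels the authors trimmed adapters and matched reads with mouse miRNAs of mm10. The deposited tables, 1 per tissue, were deposited as raw read counts of 1915 mature miRNAs, before the library size and quantile scaling that the authors used in their own tests. Use of molecular identifiers was not stated, so no molecule counts are implied. Groups came from the sample titles. All libraries of 35 animals were used, and 0 columns held no sample. All pairs of libraries in a group differed by more than sampling noise (chi-square per degree of freedom at least 15.5), and each counted as 1 replicate.

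Low miRNAs were removed by filterByExpr of edgeR 4.0.16 (count minimum 10, total minimum 15), transformed by voom with quantile normalisation and fitted in limma 3.58.1 (R 4.3.3) with 1 model per tissue and 4 groups. Tests were two-sided, with Benjamini-Hochberg adjustment over the miRNAs of the fit and a threshold of 0.05. The study's fold minimum of 2.25 was not required. Arm ratios, log2 of (5p count + 0.5) over (3p count + 0.5), were fitted in limma over hairpins with a mean of at least 10 counts per arm. Tissues were compared in a joint fit of 20 groups, and sexes and strains in fits with sex as a factor. Libraries of 1 animal were paired by its number in the titles, and their consensus correlation was 0.017 for levels and -0.014 for arm ratios. Correlations used 100000 permutations (scipy). edgeR's quasi-likelihood test, DESeq2 1.42.0, other scalings and filters, the letters, C57 males, leave-one-out fits and the arm-ratio score were alternatives. The fits were tested on simulated data. The named miRNAs were both arms, the miR-28 and miR-708 relatives, the 3 miRNAs most alike per arm and the marker miRNAs. Relatives by shared seed with miR-151 were not analysed here. The members and lists were chosen with earlier results of these data known. The table of miRNA sequences was RefSeq on GRCm38, and gene positions came from GENCODE.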

Additional observations from a re-analysis of the deposited data

Results flagged for a closer look

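A sample was singled out where its gap to the nearest of its group was large against the group's whole range (Dixon's 95% criterion), which chance gives in about 5% of groups, and 45 groups of values were examined. The irradiated C57 mouse 1089, the only female among 5, accounted for 4 of 9 such values. In heart its miR-151-5p was 413 RPM where the nearest of the others had 669 RPM, and in RBC it was 83.9 RPM against 36.9 RPM. In brain its miR-151-3p was 831 RPM against 532 RPM, and its log2 arm ratio was -1.52 against 0.96. The irradiated C3H mouse 2081 had a miR-151-5p of 321 RPM in brain, against 1103 RPM in the nearest of the others, and a log2 arm ratio of -1.29 against 1.19. The other 3 lay in blood. They were a miR-151-3p of 838 RPM in WBC of irradiated C57 mouse 1056 (nearest 260 RPM), a miR-151-5p of 170 RPM in WBC of sham C3H mouse 2074 (nearest 89.1 RPM) and a miR-151-5p of 117 RPM in RBC of sham C3H mouse 2075 (nearest 80.0 RPM).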

How the results depend on the processing

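Of 397 recalculations of results with a test, 327 kept their sign and their side of the threshold and 50 changed sign. In all, 16 newly passed the threshold and 9 no longer passed it, of which 3 and 2 also changed sign. Of 53 recalculations in C3H lung, which has no test, 2 changed sign and 2 moved by more than the spread between replicates. The cause was not tested in any of them. C3H lung miR-151-5p kept its sign throughout, and leaving out each of 15 libraries gave -1.62 to -1.39. A strict or loose filter (irradiation in lung and heart) and a pseudocount of 5 (arm ratios after irradiation) brought no value past the threshold, and none of the 9 called results was run with them. With the animal as a replicate block, heart minus lung for miR-151-5p was 0.76 (adjusted p = 0.00064), and the block changed no call between tissues. DESeq2 gave -0.91 for miR-151-3p in C57 lung and -0.31 for miR-151-5p in C57 RBC. edgeR gave -0.22 for the latter, and interactions of 0.045 (miR-151-3p, brain), 0.21 and 0.13 (both arms, WBC). Library size alone gave 0.037 for miR-151-3p in C3H lung, -0.26 and -0.035 for the arms in C3H RBC, -0.088 for miR-151-5p in C57 RBC and -0.17 for its RBC interaction. The same scaling gave strain differences of -0.59 (newly past the threshold) and 0.57 in heart and 0.24 and 0.36 in WBC (5p, 3p), and sex differences of -0.57 (miR-151-3p, heart) and 1.53 (miR-151-5p, WBC). Between tissues it gave -0.15, -1.02 and 2.48 for miR-151-5p (heart minus lung, lung minus brain, brain minus WBC) and -0.63, 2.83 and -3.67 for miR-151-3p (heart minus lung, lung minus RBC, RBC minus brain). TMM factors gave 0.40, 0.045 and 1.25 for the first 3 and -0.090, 1.95 and -1.71 for the second 3, with 0.36 for WBC minus heart and -0.036 for miR-151-5p in C57 RBC. Letter A alone gave -1.98 and 0.54 for the arms in C3H lung, 0.029 for miR-151-5p in C57 brain, 0.20 and 0.17 for the arms in C57 WBC, and -0.14 and -0.10 for miR-151-5p in C3H and C57 RBC. Letter B alone gave -0.87 and -1.25 for miR-151-3p in C3H and C57 lung, -0.088 and 0.0084 for the arms in C57 heart, 0.16 for miR-151-5p in C3H WBC and 0.15 for miR-151-3p in C57 RBC. The letter as a covariate gave 0.00088 for miR-151-5p in C3H WBC and 1.04 for its sex difference in WBC (newly past the threshold). C57 males alone gave -0.15 and 0.12 for the arms in heart and 0.15 for miR-151-3p in RBC. The arm-ratio score, a covariate chosen after the data were seen, gave -0.55 and -0.67 for the arms in C57 lung, -0.074 and -0.052 for miR-151-3p in C3H heart and brain, -0.032 for miR-151-5p in C57 heart, -0.038 for miR-151-3p in C57 brain and 0.22 for the arm ratio in C3H RBC. Its strain differences were 0.0046 and 0.067 for the arms in heart, 0.11 for miR-151-5p in brain, and 1.10 and 1.19 for miR-151-3p in WBC and RBC. Its sex differences were -0.34 for miR-151-5p in lung, 0.015 and 0.25 for the arms in heart, and -0.68 and -1.77 for miR-151-3p in WBC and RBC. In heart and RBC the scores of the sexes did not overlap, so the fit cannot separate them there. Leaving out 1 library at a time was run for groups of at most 5 and for C3H lung, where no tested value had passed, and brought none past the threshold. The sign changed in ranges of -0.27 to 0.054 (miR-151-5p, C3H WBC, without sham mouse 2074), -0.26 to 0.13 and -0.69 to 0.20 (the arms in C57 WBC), -0.23 to 0.18 (miR-151-5p, C57 RBC), and -0.31 to 0.49 and -0.15 to 0.20 (arm ratio in C57 WBC and RBC).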

Other observations

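In brain, the lowest scores on the arm-ratio axis came from 5 animals. The sham C57 letter B females 1085, 1086 and 1087 scored -9.08, -5.02 and -7.48, the irradiated C57 letter B female 1089 scored -9.50, and the irradiated C3H mouse 2081 scored -8.74. The other 30 brain scores lay between -2.47 and 7.32. In RBC the same 3 sham females scored 4.76 to 4.89, above every other RBC library.

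Across 189 of 217 abundant lung miRNAs with a RefSeq sequence, the correlation of a miRNA's level with the score went with its GC content by r = -0.46, and by -0.23, -0.37, -0.20 and -0.41 in heart, brain, WBC and RBC. These are descriptions across miRNAs, which are not independent replicates.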
